A study of Mus musculus with 5 samples.

Results

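The proteins of the cytosolic ribosome were followed in sorted mouse bone marrow progenitors through the array probe sets that carry exactly 1 gene symbol of the Rpl or Rps family. A symbol was taken when it starts with Rpl or Rps followed by a digit, or is Rplp0, Rplp1, Rplp2 or Rpsa, and symbols of the S6 kinases, pseudogenes marked -ps and symbols ending in the letter l were left out. The rule found 100 probe sets of 46 genes among 45037 probe sets of the array, 34945 of which carry a single symbol. Of 79 genes listed as ribosomal proteins, 43 were represented, 22 of the large and 21 of the small subunit. The other 3 genes match the rule by name only. Rpl22l1 is a paralog of Rpl22, Rpl7l1 resembles Rpl7, and Rps19bp1 encodes a nucleolar binding partner of the Rps19 protein. A further 110 probe sets list several symbols, one of them of this family, and were kept apart.

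The samples were 3 arrays of common dendritic cell progenitors (CDP), which give rise to dendritic cells, and 2 arrays of common myeloid progenitors (CMP), from which granulocytes and monocytes as well as red cells and megakaryocytes descend. Both came from marrow of wild-type C57BL/6 mice and were sorted as Lin-, Sca-1-, CD34+, Flk2+ and CD16/32- cells. The CDP gate took c-kit intermediate, CD115+ cells, and the CMP gate took c-kit high, CD115- and CD11c- cells. RNA of 10000 to 30000 cells per sample was amplified over 2 cycles and read on Affymetrix whole-genome mouse arrays. No age or sex of the mice is given here, nor whether the arrays stem from separate animals or sorts. The p-values therefore weigh a difference only against the scatter of these arrays, part or all of which may be technical.

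A ribosome joins a small subunit, which reads the messenger RNA, to a large subunit, which forms the peptide bonds, and most ribosomal proteins are made in equal amounts and built into the subunits in the nucleolus. Their mRNAs are among the most abundant of a cell, and most begin with a cytosine followed by a run of pyrimidines, the TOP motif, through which mTOR and LARP1 control their translation together. In blood formation the family is known for Diamond-Blackfan anaemia, in which loss of a single copy of a ribosomal protein gene impairs red cell production.

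Sequence around the start of transcription is given for the minority of these genes in which such a tract begins exactly at the annotated start. RefSeq (GRCm38.p6) gave 47 starts for 41 of the 46 genes. A C at the first base, followed by further pyrimidines to a run of at least 5 bases, was found at 8 of the 47 starts (17.02%) and at 2.51% of 32851 starts of all genes. In the 8 sequences, 10 bases before the start stand in lower case, capitals mark the tract from the annotated first base of the transcript, and all are written 5′ to 3′ on the gene's strand.
Rpl14, chr9:120571507-120571536, plus strand: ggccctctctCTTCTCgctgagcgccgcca
Rpl35, chr2:39005112-39005141, minus strand: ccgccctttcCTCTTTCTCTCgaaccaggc
Rpl38, chr11:114668570-114668599, plus strand: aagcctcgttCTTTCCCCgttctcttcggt
Rplp2, chr7:141447641-141447670, plus strand: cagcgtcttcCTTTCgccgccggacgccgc
Rps10, chr17:27635225-27635254, minus strand: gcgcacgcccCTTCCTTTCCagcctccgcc
Rps18, chr17:33955646-33955675, minus strand: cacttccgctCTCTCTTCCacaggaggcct
Rps27, chr3:90213629-90213658, minus strand: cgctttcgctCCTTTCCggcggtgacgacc
Rps6, chr4:86857348-86857377, minus strand: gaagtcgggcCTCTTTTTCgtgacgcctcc
The tract is 11 bases long in Rpl35 and 5 in Rplp2. An annotated start that lies a few bases off would miss it, so a missing match says only that these letters do not stand at that position. In the 100 bases before the start, the letters CCGGAAG, the core of many ETS factor sites, occurred on either strand at 10 of the 47 starts (21.3%) against 4.52% of all starts. A TATAAA box within 40 bases before the start, on the gene's strand, was found at 1 (2.13%) against 2.31%.

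The deposited values are log2 signals after GCRMA, and a probe set was tested when at least 2 of 5 arrays reached log2 5, which left 16552 probe sets of 8449 genes. Markers of both progenitors followed the labels. Their lists were chosen with earlier results of these data known, so they are no independent check of the labels. All 6 CDP markers had a higher mean in CDP, and 4 of them (Csf2rb2, Irf8, Id2 and Itgax) passed the limma test. All 8 CMP markers had a lower mean in CDP, and 4 of them (Kit, Gata2, Angpt1 and Tfr2) passed, some of these genes being part of the sorting gates. The array of CDP 2 also carried neutrophil transcripts, with 8 of 9 markers at or above log2 5 against 0 on CDP 1, CDP 3 and CMP 1 and 1 on CMP 2, and a summed signal of 14.00 against 6.05 to 7.80. Its 5 erythroid markers summed to 10.48 against 4.89 to 7.23, with 2 above log2 5 and the globin Hba-a1 at the floor on all arrays. The 5 B cell markers summed to 7.87 to 8.64 in CDP and 6.98 and 7.34 in CMP, with Cd79b and Vpreb1 higher on all CDP arrays than on either CMP array. The 6 T and NK cell markers summed to 5.56 to 6.54 in CDP and 8.98 to 9.02 in CMP, the latter through Nkg7, with Cd3e at the floor on all arrays. The part of these cells in the results was not tested, and values without CDP 2 are given below. A 5′ control probe set for beta-actin mRNA, which reads how far amplified copies reach from the 3′ end, had a log2 signal of 6.54 on CDP 1 and 6.71 on CMP 1, against 12.97, 10.52 and 12.40 on CDP 2, CDP 3 and CMP 2. By this control each group held 1 array low in 5′ signal (below log2 8), and these are meant by arrays of low 5′ signal throughout. The choice rests on this control. The 5′ control of Gapdh was 7.66, 10.16 and 7.40 on CDP 1, 2 and 3 and 7.57 and 10.97 on CMP 1 and 2. By Gapdh 5′ signal CDP 3 would be low as well. Away from the 5′ end Gapdh was also low on CDP 1 and CMP 1. Its middle control was 7.78 and 8.27 there, against 12.62, 11.77 and 13.18 on CDP 2, CDP 3 and CMP 2. Its 3′ control was 12.30 and 12.28 against 14.03, 14.01 and 14.19. The 3′ control of beta-actin was 14.59 and 14.06 against 15.10, 15.01 and 14.21.

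Ribosomal protein probe sets were among the brightest of the array. Of the 100, 86 were tested, and they represent 44 genes. The median of their mean log2 signal was 12.91, and 41 of the 86 reached log2 13 (47.7%), against 3.00% of all tested probe sets. The brightest was a probe set of Rps29, whose zinc-binding protein sits in the head of the small subunit, at 15.77. Signal also depends on the probes of a set, so these values are not transcript amounts set side by side. The 14 probe sets that were not tested reached at most 5.39 on any array, and 6 of them stayed below 2.4 on all arrays. For 12 of these 14 another probe set of the same gene was tested, and the 2 genes without a tested probe set were Rps16 and Rps27.

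Neither progenitor had a ribosomal protein gene that passed the limma test against the other, apart from 1 probe set of Rpl37a in a fit with a block that is described further down. Of 86 tested probe sets, 0 passed at an adjusted p of 0.05 as higher in CDP and 0 as lower, where 1.31% of all tested probe sets passed as higher and 0.423% as lower. With 1 probe set per gene, the brightest, 0 of 44 genes passed in either direction, against 1.67% and 0.473% of all tested genes. At these low shares a list of this size would hold few passing members or none, so the counts say little of the family. At an unadjusted p under 0.05 there was 1 probe set, of Rpl41, lower in CDP by 0.87 with an adjusted p of 0.307, where 4.89% of all tested probe sets reached it as lower and 11.1% as higher. The differences, CDP minus CMP in log2 units, ran from -1.11 to 0.90, and 3 probe sets differed by more than 1 in size (3.49%), against 18.6% of all tested probe sets. That share depends on brightness. At or above log2 13 it was 0 of 41 in the family and 3.82% in all.

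The precision of these differences was limited. Their median standard error was 0.40, and the median bounds of the 95% interval of the fit were -1.18 and 0.80. With 3 and 2 arrays, the difference of a typical member could thus not be told from any value between these bounds. The intervals of individual genes were much wider for some, from -4.23 to 3.74 for Rps15, and narrower for others, from -0.63 to 0.81 for Rps28.

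The median difference over the 86 probe sets was -0.13, with 32 above and 54 below 0, whereas the median over all tested probe sets was 0.12. Quantile scaling moved that array-wide median to 0.003 and left the family at -0.13. Over genes the median was -0.005, with 22 genes above and 22 below 0, against 0.17 over all tested genes. Among probe sets at or above log2 13 the order was the other way, with a median of 0.06 for the 41 of the family (24 above and 17 below 0) and -0.01 for all 497. The 22 large subunit genes had a median of 0.09, the 19 small subunit genes -0.02 and the 3 genes that match by name only -0.36. In bulk samples less RNA per cell cannot be told apart from fewer cells of a kind that makes much of it. The median over probe sets turned positive without CDP 1 (0.03) or without CMP 2 (0.07), and it was -0.23 without CDP 2 and its neutrophil transcripts. Without CDP 2, 0 members passed the threshold, but so did 0 of all 16552 tested probe sets, so that count says nothing of the family.

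**Figure D1:**
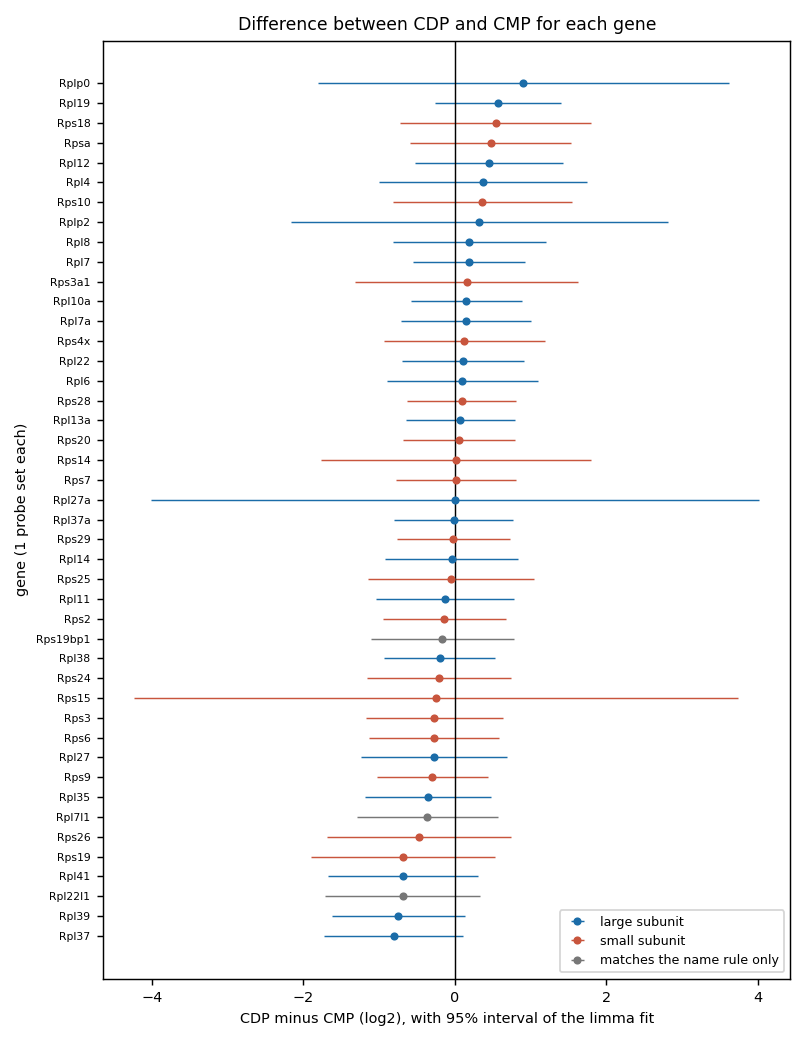
Difference between CDP and CMP in log2 signal for each of 44 genes (1 probe set each), as a point with the 95% interval of the limma fit, sorted from the highest to the lowest and coloured by subunit. All 44 intervals include 0, and the points run from -0.81 for Rpl37 to 0.90 for Rplp0, with the small subunit genes between -0.68 and 0.54.

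Many members were lowest on CDP 1 and CMP 1, the arrays of low 5′ signal, whatever the progenitor type. These were the lowest 2 of the 5 arrays for 42 of 86 probe sets (48.8%), against 23.1% of all tested probe sets, and the highest 2 for 6 (6.98%), against 17.4%. Among the bright probe sets at or above log2 13, the share was 23 of 41 (56.1%) in the family and 24.1% in all. CDP 1 alone was lowest for 41 of the 86 (47.7% against 16.4%), and CMP 2 highest for 39 (45.3% against 21.4%). Relative to the mean of a probe set over the arrays, the median member stood at -0.38 on CDP 1, 0.06 on CDP 2, 0.09 on CDP 3, -0.13 on CMP 1 and 0.29 on CMP 2. With 1 probe set per gene, CDP 1 and CMP 1 were the lowest 2 for 15 of 19 small subunit genes and 10 of 22 large subunit genes. Over the 44 tested genes of the family it was 25 (56.8%), against 25.5% of all tested genes. The part of RNA length or amplification in this pattern was not tested.

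**Figure D2:**
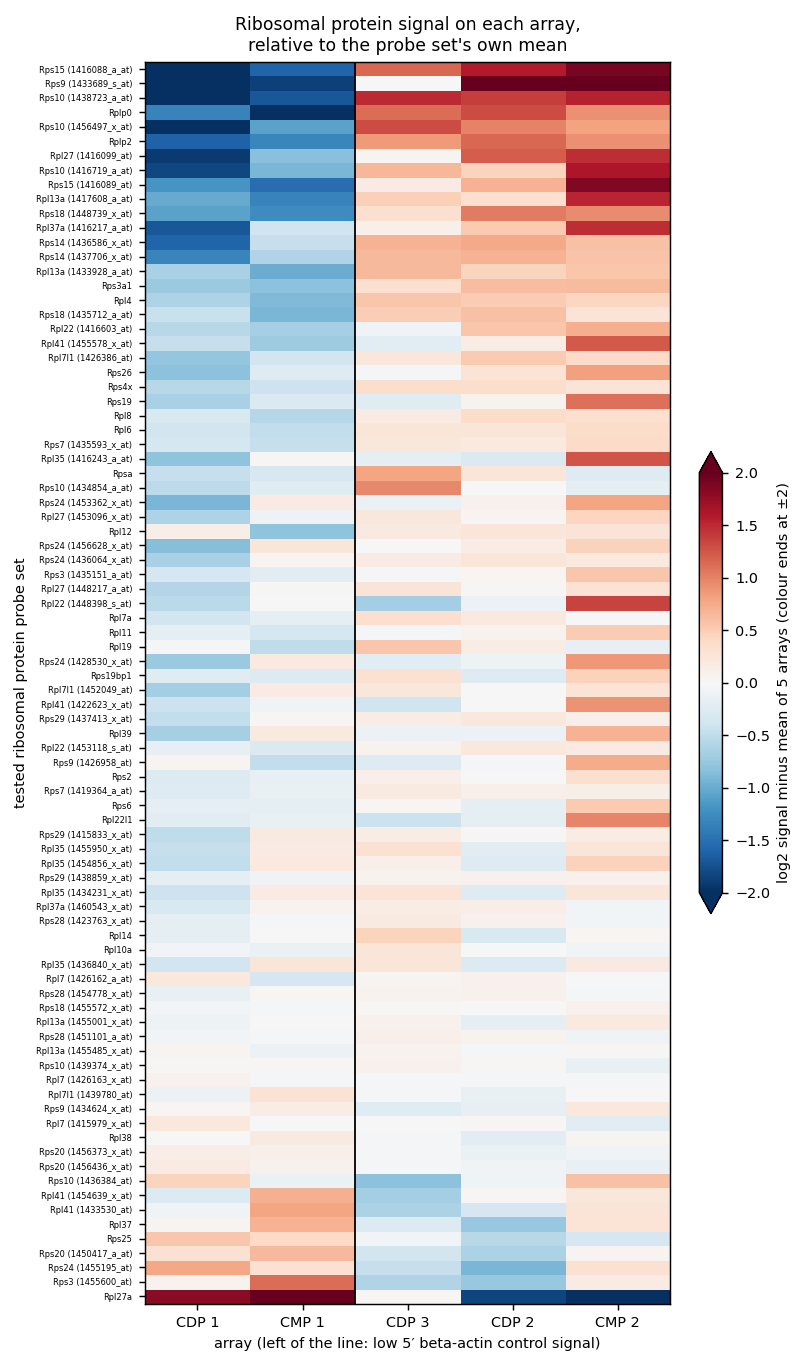
Log2 signal of each of the 86 tested probe sets (rows) on each array (columns) minus the probe set's own mean over the 5 arrays, with blue below and red above the mean and the colour scale ending at -2 and 2. The arrays low in 5′ control signal, CDP 1 and CMP 1, stand left of the line, and the upper rows are blue on both of them and red on the other 3 arrays, while the lowest row, Rpl27a, runs the other way.

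The stalk proteins show this pattern plainly. Rplp0 and Rplp2 belong to the acidic stalk of the large subunit, which calls elongation factors to the ribosome. The log2 signal of Rplp0 was 12.69, 15.32 and 15.14 on CDP 1, 2 and 3 and 12.02 and 14.93 on CMP 1 and 2. The signal of Rplp2 was 12.22, 14.98 and 14.69 in CDP and 12.53 and 14.74 in CMP. In both genes 1 array of each group lay more than 2 log2 units below the rest, and the groups overlapped. The difference was 0.90 ± 1.12 (SE) for Rplp0 with an adjusted p of 0.768, and 0.33 ± 1.02 for Rplp2 with an adjusted p of 0.919. Between the arrays of low 5′ signal the difference of Rplp0 was 0.67, and among the others it was 0.29.

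Some genes, described here after their values were seen, varied further still. Rps15, a protein of the small subunit head, had 7.11, 11.73 and 11.30 in CDP and 8.55 and 12.04 in CMP, a range of 4.93 log2 units over the arrays, with a difference between groups of -0.25 ± 1.64 (SE). Rpl27a, a large subunit protein, ran the opposite way, with 11.80, 8.16 and 10.01 in CDP and 12.51 and 7.45 in CMP. Its mean was 3.62 higher on the arrays of low 5′ signal than on the other 3, and the group means differed by 0.00 ± 1.65. Other members were nearly level. Rps28, of the small subunit head, read 15.24, 15.35 and 15.38 in CDP and 15.25 and 15.22 in CMP, a range of 0.16. Of the 86 probe sets, 18 varied by less than 0.5 over the arrays (20.9%, against 6.25% of all tested) and 17 by more than 2 (19.8% against 23.3%). At or above log2 13 the shares under 0.5 lay closer, 34.1% in the family and 26.0% in all. For ranges over 2 the order was there the other way, with 9.76% in the family and 4.02% in all.

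**Figure D3:**
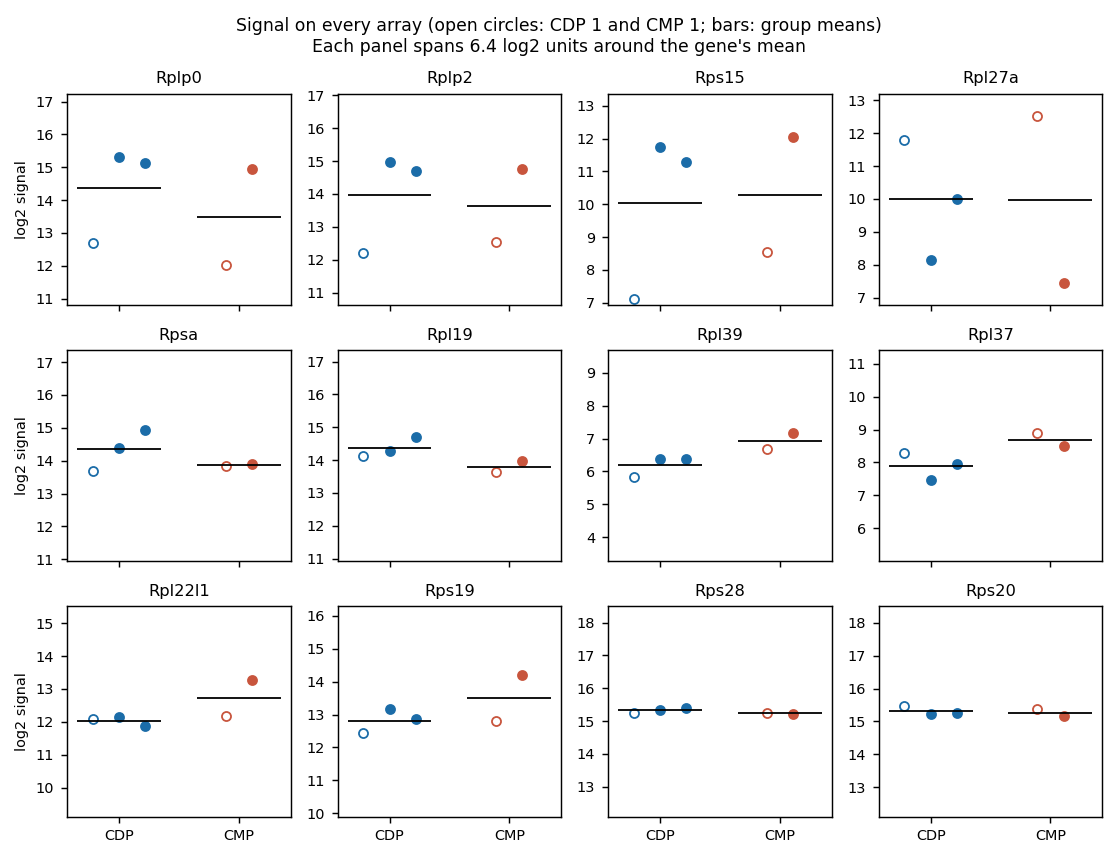
Log2 signal of 12 genes on every array, with CDP in blue, CMP in red, open circles for the arrays of low 5′ control signal (CDP 1 and CMP 1) and bars for group means, each panel spanning the same range of log2 units. In Rplp0, Rplp2 and Rps15 the open circles lie far below the filled ones in both groups, in Rpl27a they lie above, and in Rpl39 and Rpl37 all CDP points lie below the CMP points.

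All CDP arrays lay above both CMP arrays for 3 of 44 genes, against 23.7% of all tested genes, and for 5 of 86 probe sets, against 21.2%. At or above log2 13 the shares were 9.76% in the family and 13.3% in all. The count of probe sets was 20 without CDP 1, 9 without CMP 1 and 25 without CMP 2. Fewer arrays separate more easily by arrangement alone, and the share over all tested probe sets was not counted for these. Rpl19, whose protein bridges the subunits, had the largest such difference, with 14.12, 14.29 and 14.70 in CDP and 13.62 and 13.97 in CMP. CDP 1 lay just above CMP 2, and the difference was 0.57 ± 0.34 (SE) with an adjusted p of 0.493. Rpl7 and Rpl10a, the latter the protein of the L1 stalk next to the tRNA exit site, followed with 0.19 ± 0.30 and 0.15 ± 0.30.

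Genes in which all CDP arrays lay below both CMP arrays were 5 of 44, against 10.8% of all tested genes, and for probe sets 15 of 86 (17.4%), against 11.0%. At or above log2 13 the order was the other way, with 4.88% in the family and 11.9% in all. The count of probe sets was 23 without CDP 3 and 45 without CMP 1. There too fewer arrays had to separate, and no share over all tested probe sets was counted. Rpl37, a small zinc-binding protein of the large subunit, read 8.27, 7.45 and 7.94 in CDP and 8.90 and 8.49 in CMP. Its difference of -0.81 ± 0.38 (SE) was the lowest of the 44 genes, with an adjusted p of 0.375. Rpl39, which lines the tunnel through which the new protein leaves, read 5.83, 6.37 and 6.37 in CDP and 6.68 and 7.18 in CMP. This gave -0.74 ± 0.36 with an adjusted p of 0.386. The difference of Rpl39 was -0.86 between the arrays of low 5′ signal and -0.81 among the others, so it was of like size in both.

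Rpl22l1, the paralog that can replace Rpl22 in the ribosome, read 12.09, 12.13 and 11.88 in CDP and 12.16 and 13.29 in CMP. CMP 1 lay barely above the highest CDP array, and the difference of -0.69 ± 0.42 (SE, adjusted p 0.496) was -0.13 without CMP 2. Rps9, a protein of the small subunit body that bears on decoding accuracy, differed by -0.30 ± 0.30. Rpl38, known for its role in the translation of Hox mRNAs in mouse embryos, differed by -0.20 ± 0.30, with 13.98, 13.76 and 13.93 in CDP and 14.16 and 14.03 in CMP.

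The genes best known from blood and signalling did not pass either. Rps19, the gene most often mutated in Diamond-Blackfan anaemia, read 12.44, 13.16 and 12.85 in CDP and 12.80 and 14.19 in CMP, and CMP 2 stood above all others. Its difference was -0.68 ± 0.50 (SE) with an adjusted p of 0.586, and it was 0.01 without CMP 2. Rps14, the gene behind the anaemia of the 5q- syndrome, read 12.18, 14.18 and 14.14 in CDP and 12.90 and 14.07 in CMP. The group means of Rps14 differed by 0.02 ± 0.73, and the arrays of low 5′ signal were again the lowest 2. Rpl11, which with the 5S ribosomal RNA and Rpl5 binds Mdm2 and so stabilises p53 when ribosome assembly fails, read 12.17, 12.43 and 12.33 in CDP and 12.001 and 12.87 in CMP, a difference of -0.13 ± 0.38. Rps6, the target of the S6 kinases, read 10.57, 10.57 and 10.78 in CDP and 10.55 and 11.27 in CMP, a difference of -0.27 ± 0.35.

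Rpsa, a small subunit protein also known as the laminin receptor precursor, read 13.70, 14.40 and 14.94 in CDP and 13.84 and 13.90 in CMP. The CMP arrays agreed closely while the CDP arrays spread around them, and the difference was 0.48 ± 0.44 (SE) with an adjusted p of 0.669. Rps4x, encoded on the X chromosome, read 14.20, 15.12 and 15.10 in CDP and 14.34 and 15.02 in CMP and differed by 0.12 ± 0.44. The brightest probe sets varied little. That of Rpl13a, a large subunit protein often used as a reference gene, read 15.76, 15.67 and 15.78 in CDP and 15.59 and 15.73 in CMP (0.08 ± 0.30). Rps20, of the small subunit head, differed by 0.06 ± 0.31 and Rps29 by -0.02 ± 0.31. Fainter Rpl13a sets varied more over the arrays, 1417608_a_at by 2.85, 1433928_a_at by 1.65 and 1455001_x_at by 0.39. Among fainter Rps20 sets, 1456373_x_at differed by -0.03 ± 0.30 and 1450417_a_at by -0.59 ± 0.42. The faintest included Rps19bp1, with a difference of -0.17 ± 0.39.

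Grouped by place in the ribosome, no set of genes held a member that passed. The 9 tested genes of the small subunit head had a median difference of -0.02, from -0.68 to 0.54, and the 5 tested genes around the exit of the peptide tunnel had -0.20. The 2 stalk genes had a median of 0.61, with the wide errors given above. Of 19 genes listed for Diamond-Blackfan anaemia, 10 were tested, with a median of -0.17, 3 above and 7 below 0. In 8 of these 10, all but Rpl35 and Rps28, CDP 1 and CMP 1 were the lowest 2 arrays. The same held for 25 of the 44 tested genes of the family (56.8%) and for 25.5% of all tested genes. Of the 8 genes whose start is printed above, 7 were tested and had a median difference of -0.04, against -0.03 for the 32 tested genes with an annotated start and no such tract.

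Probe sets of 1 gene often behaved differently across the arrays. Of the 19 genes with several tested probe sets, 10 were lower in CDP by all of them, 3 were higher by all and 6 differed in sign, in none of which both differences exceeded 0.5 in size. Rps10, a protein of the small subunit head mutated in Diamond-Blackfan anaemia, had 6 tested probe sets. The set 1438723_a_at read 8.55, 12.64 and 12.75 in CDP and 9.56 and 12.80 in CMP, whereas 1439374_x_at read 13.01, 13.01 and 13.07 in CDP and 13.01 and 12.85 in CMP. The first varied by 4.25 log2 units and the second by 0.22, and neither separated the groups. In Rps9, the set 1433689_s_at read 9.17, 13.93 and 11.80 in CDP and 9.94 and 14.17 in CMP, and 1434624_x_at read 15.65, 15.46 and 15.38 in CDP and 15.77 and 15.82 in CMP. The third set of Rps9, 1426958_at, read 7.88, 7.78 and 7.57 in CDP and 7.34 and 8.56 in CMP. The first of these was lowest on the arrays of low 5′ signal, and the other two were not.

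The ending of a probe set's identifier says what its probes can match. An ending _a_at marks alternative transcripts of 1 gene, _s_at probes shared by several transcripts, and _x_at probes that may also bind others. Ribosomal protein genes have many processed pseudogenes of nearly the same sequence, so for _s_at and _x_at sets the signal may be shared and its source is uncertain. The 27 tested _a_at sets had a median range over the arrays of 1.42, and 20 of them had CDP 1 and CMP 1 lowest. The 35 _x_at sets had a median range of 0.68, with 12 such cases, and the 21 _at sets had 1.30 with 8. Over all tested probe sets the median range was 1.38 for _a_at, 1.05 for _x_at and 1.36 for _at. In the same order, CDP 1 and CMP 1 were lowest for 74.1%, 34.3% and 38.1% of the family's sets. Over all tested probe sets these shares were 33.6%, 20.1% and 21.0%. The endings also differ in brightness, with median signals of 13.32, 13.49 and 9.43 in the family.

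**Figure D4:**
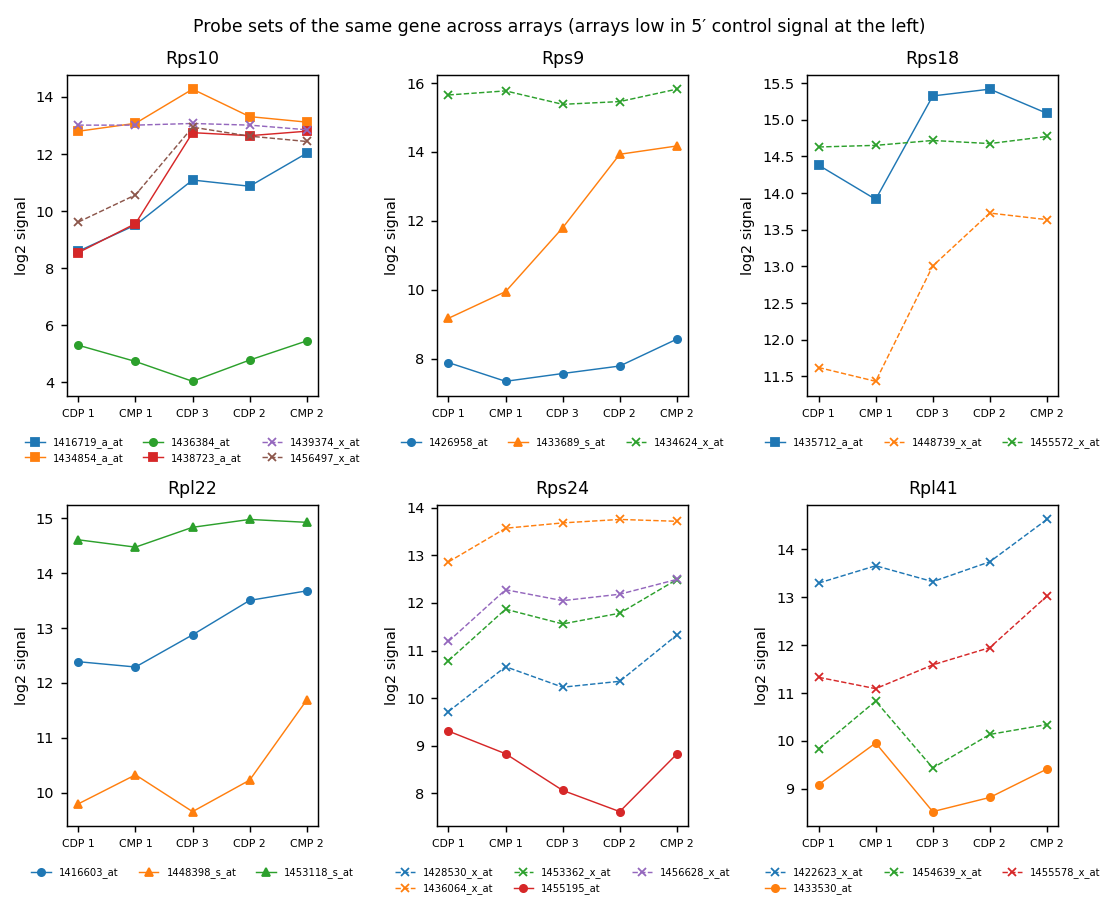
Log2 signal of every tested probe set of Rps10, Rps9, Rps18, Rpl22, Rps24 and Rpl41 on the 5 arrays, with the arrays of low 5′ control signal (CDP 1 and CMP 1) at the left and the marker shape giving the identifier's ending. In Rps10, Rps9 and Rps18 some probe sets climb by 2 to 5 log2 units from left to right while 1439374_x_at, 1434624_x_at and 1455572_x_at stay nearly level, and in Rps24 and Rpl41 the probe sets move in different ways.

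A few genes, chosen after their values were seen, had all probe sets lower in CDP. The 5 tested sets of Rps24, a small subunit protein, differed by -0.89 to -0.21, and the 5 of Rpl35, at the tunnel exit, by -1.07 to -0.33. The 4 sets of Rpl41, which encodes one of the shortest known proteins, differed by -0.87 to -0.44. For the Rpl41 set 1433530_at the values were 9.09, 8.82 and 8.53 in CDP and 9.96 and 9.41 in CMP, and the groups did not overlap. Probe sets of a gene share its RNA and are not replicates of each other. The lowest difference of all, -1.11 ± 0.49 (SE, adjusted p 0.341), belonged to the Rpl22 set 1448398_s_at, with 9.80, 10.23 and 9.65 in CDP and 10.32 and 11.69 in CMP. The brighter Rpl22 set 1453118_s_at read 14.61, 14.98 and 14.84 in CDP and 14.48 and 14.93 in CMP, and its difference was 0.11 ± 0.33.

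With the arrays of low 5′ signal taken as a block in the limma fit, 1 probe set passed the threshold. It was 1416217_a_at of Rpl37a, a zinc-binding protein of the large subunit, with 6.77, 8.99 and 8.57 in CDP and 8.07 and 9.95 in CMP. Within each kind of array CDP was lower, and the blocked difference was -1.22 ± 0.28 (SE) with an adjusted p of 0.0473. The brighter probe set of Rpl37a differed by -0.01 ± 0.32 without the block. In the blocked fit 1 of 86 members was lower and 0 higher, where 2.5% of all tested probe sets passed as lower and 6.19% as higher. An unadjusted p under 0.05 was reached there by 14 members, all lower in CDP, where 9.7% of all tested probe sets reached it as lower and 17.2% as higher. With the arrays low in the Gapdh 5′ control as the block instead, chosen after seeing the data, 0 members passed and the lowest adjusted p was 0.192. Of all 16552 tested probe sets, 259 passed as higher and 91 as lower in that fit, so few members or none would be found there. Within both kinds of array at once, CDP was lower for 38 of the 86 probe sets (44.2%, against 26.3% of all tested) and higher for 10 (11.6%, against 38.6%). At or above log2 13 the share with CDP lower was much the same, 13 of 41 (31.7%) in the family and 31.0% in all. The median difference was -0.17 within the arrays of low 5′ signal and -0.16 among the others.

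No gene of the other translation lists passed either. Of all tested genes 1.67% passed as higher and 0.473% as lower, so lists of this size would hold few or none. Of 33 tested initiation factor genes, 15 elongation and termination factor genes and 14 other genes with TOP mRNAs, 0 passed, and their median differences were 0.02, -0.03 and -0.12. Of the mitochondrial ribosome, which is built from a separate set of proteins, 45 large and 29 small subunit genes were tested, with medians of 0.09 and 0.05 and 0 passed. The 12 tested genes of the mTOR pathway and the S6 kinases, which act on the TOP mRNAs and on Rps6, had a median of 0.05, again with 0 passed. Of 12 paralogs and genes of like name, which include the 3 that match the rule by name only, 5 were tested, with a median of -0.36 and 0 passed. Counts of genes at an unadjusted p under 0.05 were 1 each for the initiation factors, the other TOP mRNAs, both mitochondrial subunits and the mTOR list, and 0 for the elongation and termination factors and the paralogs, where 17.1% of all tested genes reached it. The 110 probe sets with several symbols, an alternative chosen after seeing the data, had a median difference of -0.07 over the 100 tested. Of these 100, 1 passed as higher and 0 as lower, near the 1.31% and 0.423% of all tested probe sets.

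**Figure D5:**
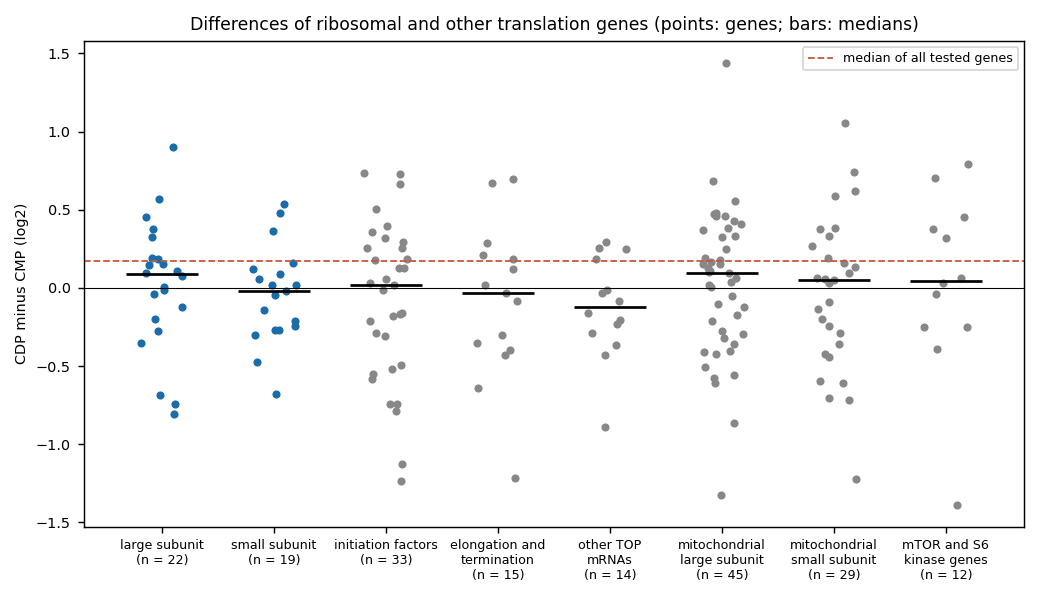
Difference between CDP and CMP in log2 signal for each gene (points) of both ribosomal subunits in blue and 6 other lists in grey, with black bars for list medians and a dashed line for the median of all tested genes, 0.17. All 8 medians lie between -0.12 and 0.09, below the dashed line, and the ribosomal protein genes run from -0.81 to 0.90.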

How the data were processed

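Members and gene lists were chosen with earlier results of these data known. The authors deposited log2 signals of 5 arrays, made with GCRMA per the submitters' processing notes (version not given in the sources used here). GCRMA corrects background, normalizes quantiles and summarises probes. Values were not normalized again. Groups came from sample titles, of which that of CDP 3 has the prefix CM and the others BM, unexplained. The platform annotation named the probe sets, and all 46 member symbols were found unchanged in RefSeq. The files name no genome build, and coordinates are those of RefSeq's GRCm38.p6. The groups were compared with limma 3.58.1 under R 4.3.3 (lmFit, then eBayes; 2-sided) over all 16552 tested probe sets, with Benjamini-Hochberg adjustment and a threshold of 0.05. The script was tested on simulated data. The brightest tested probe set stood for a gene. Genes named by rule were those whose groups did not overlap (up to 6 each way), 17 fixed names, 12 of them tested, the 4 brightest and 4 faintest probe sets, and called or discordant genes (0 found). Others are marked as chosen after their values were seen. The number of arrays limits the precision. Alternatives were quantile scaling, median centring, other filters and variance priors, array weights, the replicate number or the low 5′ signal as a block (the latter known from an earlier look at these data), fewer probe sets and fewer arrays.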

Additional observations from a re-analysis of the deposited data

How the results depend on the processing

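No ribosomal protein gene, by its brightest probe set, passed the threshold under any of 18 alternatives, and of the probe sets only Rpl37a did, when arrays low in 5′ beta-actin signal were a block (1 lower, against 0). With the Gapdh 5′ control in its place, added after seeing the data, 0 members passed, where all tested probe sets gave 259 higher and 91 lower. In that fit the median was -0.06 and Rps29 was at 0.00589. The median over probe sets ranged from -0.39 to 0.07 when 1 array was left out, and was -0.26 after median centring and 0.0003 with array weights. Without CDP 2 or without CDP 3, 0 of all tested probe sets passed, so the absence of members there says nothing of the family. Probe sets with CDP above CMP on all arrays numbered 3 after quantile normalization, 1 after centring, 3 without _s_at and _x_at sets, 23 without both arrays of low 5′ signal (which leaves 2 against 1) and 5 to 25 with 1 array left out. Those below numbered 26 after centring, 6 without _s_at and _x_at sets, 47 without the arrays of low 5′ signal and 16 to 45 with 1 array left out. Fewer arrays separate more easily by arrangement alone, and no share over all tested probe sets was counted for these settings. With the replicate number as a block (the replicate block), 0 members passed, the median was -0.25, and all tested probe sets gave 432 higher and 176 lower in place of 217 and 70. Only CDP 3 bears the number 3, so in this fit it adds nothing to the differences. The median was likewise -0.25 without CDP 3. The numbers were not taken to pair the arrays, since only 2 pairs exist, although arrays of the same number deviated together (r = 0.61 and 0.58 across tested probe sets). With 2 CMP arrays the deviations of CMP 1 and CMP 2 are mirror images, so both values rest on the same contrast. The number 1 also marks the arrays of low 5′ signal, so these values cannot speak for pairing. Of the 22 named genes 9 kept their direction throughout. After centring the difference was -0.0522 for Rpl13a, -0.0206 for Rpl22, -0.11 for Rps14, -0.0729 for Rps20 and -0.0041 for Rps4x. With the replicate block it was -0.0369 for Rplp2, -0.0423 for Rps10, -0.30 for Rps14 and -0.0237 for Rps4x. With the arrays of low 5′ signal as a block it was -0.0814 for Rplp2, -0.25 for Rps14 and -0.011 for Rps4x, and without them -0.00799 for Rpl13a and -0.0191 for Rpl22. With array weights Rps29 was at 0.0454. With 1 array left out the range was -0.56 to 0.31 for Rpl11, -0.12 to 0.33 for Rpl22, -0.55 to 2.36 for Rplp0, -0.78 to 1.43 for Rplp2, -0.0423 to 0.70 for Rps10, -0.57 to 0.68 for Rps14, -1.37 to 0.0132 for Rps19, -0.53 to 0.20 for Rps19bp1, -0.060 to 0.17 for Rps20, -0.10 to 0.0693 for Rps29, -0.22 to 0.46 for Rps4x and -0.63 to 0.0913 for Rps6. The cause was not tested.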
